A study of Mus musculus with 7 samples.

Results

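Wide anti-Six4 peaks, those of at least 1 kb, numbered 3751 among the 58528 regions listed by the authors for differentiating C2C12 cells, which leaves 54777 narrower peaks. They were chosen by width alone, as end minus start of at least 1000 bp, so that their width is a description and not a finding. Chromatin immunoprecipitation followed by sequencing (ChIP-seq) recovers cross-linked DNA fragments with an antibody, and a peak is a stretch where a caller found fragments in excess. The list comes from a single library, made with an antibody against Six4 in C2C12 cells that stably carry the control hairpin shNS, taken 24 h after confluent cultures were moved to differentiation medium with horse serum. C2C12 is an immortalised mouse myoblast line that fuses into myotubes in low serum. The series describes 7 libraries, 1 for each line and antibody, and the other 6 (Flag-Six4 C2C12 and parental cells with anti-Flag, parental cells with normal rabbit IgG, the Six4 hairpin line shSix4 with anti-Six4, and input DNA of the parental and shNS lines) were not analysed here. How many wide peaks depend on Six4 was therefore not tested.

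Six4 is a transcription factor of the sine oculis family. It binds DNA through a homeodomain, works with Eya co-activators, and acts upstream of the myogenic regulatory factors in embryonic muscle. Its recognition site in muscle promoters is known as MEF3. In ChIP-seq of a sequence-specific factor, a single bound site usually gives a peak about as wide as the sheared fragments, whereas closely spaced sites or a broad stretch of occupied chromatin can give a wider one. A width in a peak list also follows the height of the signal and the rules of the caller.

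Most wide peaks were only moderately wide. The median of 1247 bp lay between quartiles of 1102 and 1505 bp, against 263 bp (quartiles 200 and 397 bp) for narrower peaks. Of the wide peaks, 1887 (50.3%) measured 1000 to 1249 bp, 913 measured 1250 to 1499 bp and 699 measured 1500 to 1999 bp. A further 183 reached 2000 to 2499 bp, 47 reached 2500 to 2999 bp, and 22 were of 3 kb or more. Wide peaks were 6.41% of the list and covered 5.12 Mb, which was 21.8% of the sequence under all peaks.

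Nothing in the widths sets the members apart at 1 kb. The list held 534 peaks of 950 to 999 bp and 521 of 1000 to 1049 bp, with median line numbers of 6850 and 7055. Of the 5 earliest-listed peaks of exactly 1000 bp, the first 3 lay at chr2:119125634-119126633 (line 2927), chr11:121097961-121098960 (line 5412) and chr4:137050608-137051607 (line 6063). The next were at chr7:120656738-120657737 (line 7131) and chr11:77326363-77327362 (line 8541). Just outside, peaks of 999 bp lay at chr11:70353317-70354315 (line 2957), chr14:35361935-35362933 (line 3879) and chr9:119803723-119804721 (line 4786). The other two were chr5:5693664-5694662 (line 11707) and chr5:134575316-134576314 (line 14551). Their line numbers overlapped those of the 5 peaks inside. Positions are in mm9 and counted from 1. No genes are named, because no annotation of that build was used here.

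The widest peak, at chr10:79610497-79616013, stood on line 1027 of the list and spanned 5517 bp. Its nearest neighbour was 5148 bp away, edge to edge. The runner-up, at chr11:51668825-51672729, measured 3905 bp, 70.8% of the first, and stood on line 2334. The others of the 10 widest were close in size, from 3847 bp (chr5:139468713-139472559, line 5466) down to 3314 bp (chr8:11006763-11010076, line 5911). Chromosome 8 held 3 of these 10, of which that peak and a 3634 bp peak at chr8:11555064-11558697 (line 2275) lay 544987 bp apart. The third, chr8:81551740-81555101 (line 887), measured 3362 bp, and its nearest neighbour was 24385 bp away. The nearest neighbours of the 10 widest peaks lay between 1045 and 24385 bp away, so none of them had another peak within 1 kb. Of all wide peaks only 12.7% had one that close, and of the 22 peaks of 3 kb or more 9.09%. The lack among 10 peaks therefore does not set them apart.

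Wide peaks were gathered at the start of the list, although the list carries no score and the quantity that ordered it is not given in the sources used here. The median wide peak stood on line 5623 (quartiles 2596 and 10176) and the median narrower peak on line 31101. Of the wide peaks, 51.5% (exact binomial 95% interval 49.8 to 53.1%) were in the first decile of the lines (the first 10%) and another 29.2% in the second. Seen from the list, 33.0% of the peaks in the first decile were wide, 18.7% in the second, 7.26% in the third and 2.96% in the fourth. The share was lower in each later decile, down to 1 wide peak among 5852 in the last decile. All such intervals here cover counting error within this library, since peaks are not replicates of a culture.

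**Figure D1:**
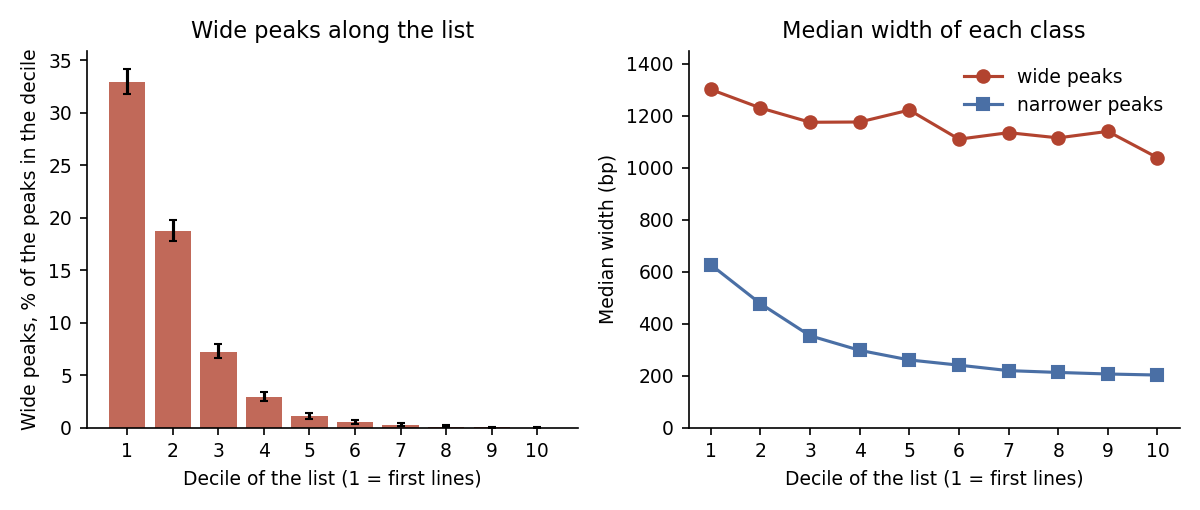
Share of wide peaks (left, with exact binomial 95% intervals) and median width of wide and narrower peaks (right, in bp) in each decile of the list from first to last line. The share of wide peaks runs from 33.0% in the first decile to 1 peak in the last, and the narrower peaks shorten along the list too, from a median of 627 bp to 203 bp.

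Being early in the list and being wide went together without being the same. Spearman's rho between the line and the width was -0.64 over all 58528 peaks. Only 56 of the first 100 lines and 395 of the first 1000 (39.5%) were wide peaks, and 3923 of the 5853 peaks in the first decile were narrower than 1 kb. Within the wide peaks rho was -0.18 and within the narrower peaks -0.58, where the limit on width narrows the range. All 3 values are descriptions across peaks of 1 library. The first decile took 44.5% of the peaks of 1000 to 1249 bp, 58.9% of those of 1500 to 1999 bp and 81.8% of the 22 peaks of 3 kb or more. The first wide peaks by line mostly exceeded the class median of 1247 bp, but few were among the widest. Line 1 was a peak of 1376 bp (chr1:55144197-55145572), line 2 one of 1461 bp (chr17:28313563-28315023) and line 4 one of 1465 bp (chr7:117204401-117205865). Of the 10 earliest, a single one exceeded 2 kb, a peak of 3049 bp at chr14:26278258-26281306, on line 13.

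The share of wide peaks differed by chromosome. On the 19 autosomes it averaged 6.40% ± 1.08 (SD over chromosomes). It was highest on chromosome 19 (141 of 1669 peaks, 8.45%, interval 7.16 to 9.89%), followed by chromosome 11 (345 of 4195, 8.22%), chromosome 17 (201 of 2599, 7.73%) and chromosome 8 (233 of 3030, 7.69%). It was lowest among autosomes on chromosome 16 (100 of 2162, 4.63%, interval 3.78 to 5.60%) and chromosome 13 (128 of 2616, 4.89%). Per Mb between the first and last listed peak, wide peaks were densest on chromosomes 11 (2.90), 19 (2.43) and 17 (2.18). On chromosome X they numbered 60, or 0.369 per Mb against 1.53 on the autosomes together.

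The mix of early and late lines also differed between chromosomes. Giving each peak of a chromosome the wide share of its own decile of the list, taken over all chromosomes, yielded 7.20% for chromosome 19, 7.86% for chromosome 11, 5.82% for chromosome 16 and 7.41% for chromosome 15. The observed share on chromosome 16 remained below that value, as did the 6.47% of chromosome 15 (interval 5.65 to 7.37%). For chromosomes 8, 17 and 19 the observed share was higher, by margins inside the counting interval. On chromosome X the observed 4.25% (interval 3.26 to 5.43%) lay above the 3.17% of its line deciles, whereas it lay below the 6.46% of all autosomal peaks. Within the first decile of the lines, 14 of 48 X peaks (29.2%, interval 17.0 to 44.1%) and 1916 of 5805 autosomal peaks (33.0%) were wide, a difference within the counting error of X. Wide peaks on X were listed later, with a median line of 12454 against 5551 on autosomes, and had a similar median width, 1295 against 1246 bp. Copy number and read depth of X were not measured here, and their part in these values was not tested.

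**Figure D2:**
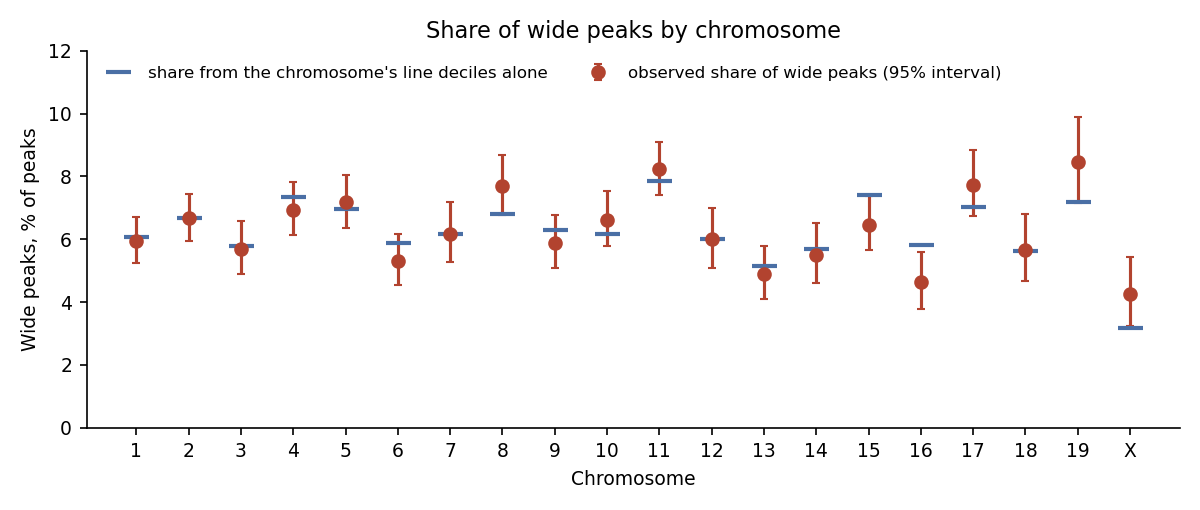
Wide peaks as a percentage of the peaks on each chromosome (points, with exact binomial 95% intervals), and the percentage that follows from the chromosome's mix of line deciles (bars). On chromosomes 15 and 16 the whole interval sits below the bar. On X, at 4.25%, it sits above the bar at 3.17%, although X is the lowest point of all. On the other chromosomes the interval includes the bar.

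Along the chromosomes, wide peaks were unevenly spread. They were counted by midpoint in 2545 windows of 1 Mb that lay wholly between the first and last peak of a chromosome. In 1187 windows (46.6%) there was none, and 521 held 1. The 213 windows with at least 5 (8.37%) contained 41.2% of all windowed wide peaks. The variance of the count was 3.30 times its mean of 1.45. Narrower peaks of the first decile, 3853 in number and so of like abundance, gave 3.54 times. Wide peaks of all lines were no more clumped than these by this measure. The 1895 wide peaks of the first decile alone gave 2.15 times, at a lower abundance.

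A pair of windows side by side on chromosome 10 held the most. At chr10:79000001-80000000 there were 19 wide peaks among 68, the widest peak of the list included, and at chr10:80000001-81000000 there were 17 among 62, so that 27.9% and 27.4% of the peaks there were wide. Chromosome 15 followed with 18 among 82 peaks at chr15:76000001-77000000 and 16 among 77 at chr15:98000001-99000000. Several windows shared the next place with 14 each, among them chr8:87000001-88000000, where they were 14.3% of 98 peaks, and chr17:34000001-35000000, where they were 27.5% of 51 peaks. The share of wide peaks thus differed among these windows. All of them except the one on chromosome 17 held at least 62 peaks, and the densest 10% of windows begin at 53. At the other extreme, chr9:102000001-103000000 and chr16:34000001-35000000 each held 55 peaks and no wide one.

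Regions dense in peaks held more of the wide ones. The densest 10% of windows, 254 with at least 53 peaks each, contained 36.4% of windowed wide peaks (interval 34.8 to 38.0%) and 27.3% of narrower ones (26.9 to 27.7%). This difference was not seen between peaks of like line number. In the first decile of the lines, 36.6% of wide peaks (34.4 to 38.8%) and 38.0% of narrower peaks (36.4 to 39.5%) fell in these windows. Narrower peaks weighted to the line deciles of the wide peaks gave 37.3%. Since wide peaks themselves help to make a window dense, windows were also ranked by their narrower peaks alone, a ranking that favours those. The densest 10% then held 32.9% of wide and 27.4% of narrower peaks, and within the first decile 33.3% of wide and 36.8% of narrower peaks.

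The share of wide peaks was higher in denser regions over the whole list and not within the first decile. In windows with 1 to 5 narrower peaks 2.75% of peaks were wide (46 of 1671, interval 2.02 to 3.65%), in those with 16 to 30 it was 5.38%, and in those with 51 or more it was 7.62% (7.20 to 8.05%). Among peaks of the first decile, the same classes had 45.3% (24 of 53, 31.6 to 59.6%), 33.6% and 30.8% (28.7 to 32.9%). The order of these 3 classes was thus the opposite, although the sparsest class rests on 53 peaks and its interval reaches that of the densest. The classes of 6 to 15 and 31 to 50 narrower peaks had 34.6 and 34.0% in the first decile. Between the sparsest and the densest class the share was thus nearly flat. Narrower peaks enter both the classes and the denominator, which by itself lowers the share in crowded windows. Across windows the counts of wide and narrower peaks had a Spearman's rho of 0.77, a description over 2545 windows that share one library.

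**Figure D3:**
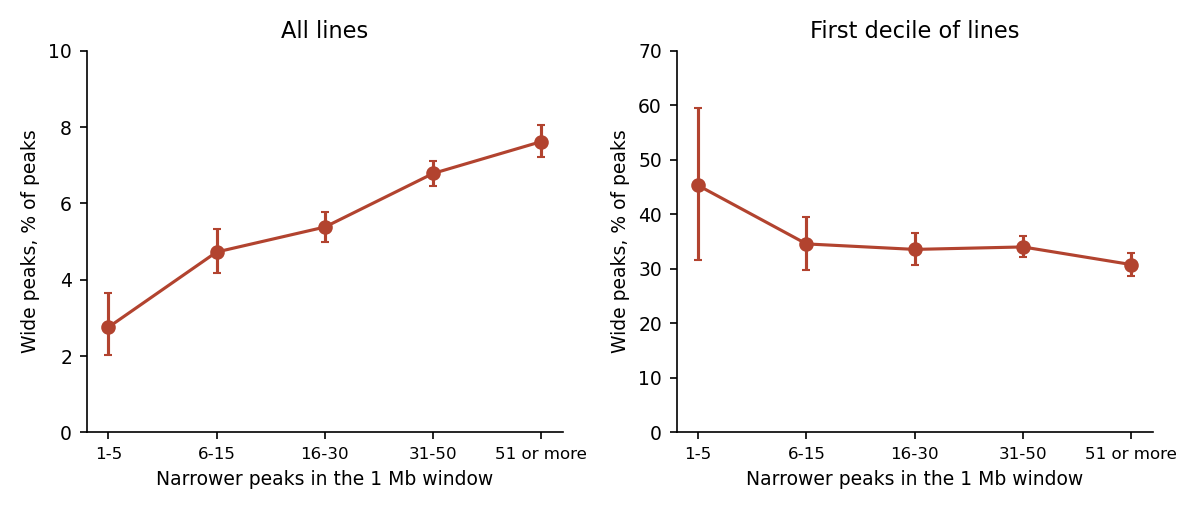
Wide peaks as a percentage of all listed peaks (left) and of the peaks in the first decile of lines (right), in 1 Mb windows grouped by their number of narrower peaks, with exact binomial 95% intervals. The left panel climbs from 2.75% to 7.62%, and the right panel goes from 45.3% to 30.8%.

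Wide peaks were more frequent in the last 10% of the chromosome spans than in the first 10%. The spread between chromosomes was large. The last 10% of the span held 2.21 ± 1.41 wide peaks per Mb and the first 10%, next to the centromere in the mouse, held 1.31 ± 1.69 (SD, n = 20 chromosomes). The last part was higher on 16 of 20 chromosomes. Chromosome 19 went the other way, with 8.27 in its first part, the highest value at any end, and 2.24 in its last. As a share of peaks, wide ones made up 7.42% of 7556 in the last parts (interval 6.84 to 8.04%) and 5.85% of 4700 in the first (5.20 to 6.56%). Peaks of all widths were thus also more numerous in the last parts, and the ends were not compared at like line number.

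Between 1 and 10 kb, fewer wide than narrower peaks had a neighbour. Another peak lay within 10 kb, edge to edge, for 54.5% of wide peaks (2044 of 3751, interval 52.9 to 56.1%) and 59.4% of narrower peaks (59.0 to 59.8%). The median gap to the nearest peak was 9014 bp for wide and 7685 bp for narrower peaks. Narrower peaks weighted to the line deciles of the wide ones gave 67.0% within 10 kb, so the difference at like line number, wide minus narrower, was larger at -12.5 percentage points. Within 5 kb 26.9% of wide and 34.8% of narrower peaks had a neighbour (40.1% after weighting, a difference of -13.2 points). Within 1 kb the shares were 12.7 and 14.5% (17.6% after weighting). At the shortest and longest distances the unweighted order was not kept. Within 0.5 kb the shares were 10.1 and 9.99%, and within 0.1 kb 3.12% (2.59 to 3.73%) of wide and 2.41% (2.28 to 2.54%) of narrower peaks had a neighbour, whereas the weighted values were 12.3 and 3.19%. Within 20 kb they were 81.5 and 79.6% (87.7% after weighting), and within 50 kb 96.7 and 92.7% (97.7% after weighting).

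This gap between the classes was present in each of the first 4 deciles of the list, which hold 3625 wide peaks. In the first decile 52.0% of wide peaks (49.7 to 54.2%) and 64.8% of narrower peaks (63.3 to 66.3%) had a neighbour within 10 kb. In the second decile the shares were 55.2 and 69.5%, in the third 62.8 and 70.8%, and in the fourth 61.3 and 70.7%. In the fifth, 33 of 66 wide peaks (37.4 to 62.6%) and 63.5% of narrower peaks had one. In the sixth, with 33 wide peaks, 54.5% (36.4 to 71.9%) and 61.0% could not be told apart at this number. By chromosome, without regard to line, the share was lower for wide peaks on 19 of 20 chromosomes, with the widest gap on chromosome 12 (45.3 and 61.1%) and the smallest on chromosome 11 (64.1 and 64.4%). Chromosome X, with 60 wide peaks, had 48.3 against 45.9%.

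**Figure D4:**
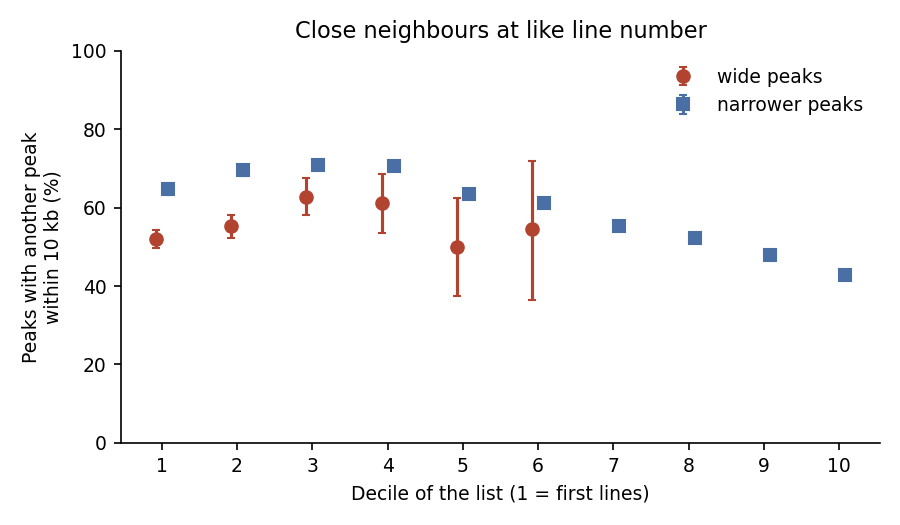
Percentage of wide and narrower peaks that had another peak within 10 kb, edge to edge, by decile of the list, with exact binomial 95% intervals. Deciles with fewer than 30 wide peaks show narrower peaks only, and wide peaks lie below narrower ones in each decile shown, for example at 52.0 against 64.8% in the first.

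The thinning around wide peaks was strongest at gaps of 0.5 to 4 kb. In their own 1 Mb windows, wide peaks of the first decile and narrower peaks of the first decile had the same median company, 42 other narrower peaks. Counted outward from the edges, however, wide peaks of the first decile had 85.5 others per kb of flank, for every 1000 of them, at gaps under 0.5 kb. They had 24.4 at 0.5 to 1 kb, 16.3 at 1 to 2 kb, 16.8 at 3 to 4 kb, 43.0 at 4 to 5 kb and 52.3 at 7 to 8 kb. Narrower peaks of the same decile had 116.0, 52.5, 37.5, 32.2, 43.2 and 68.6 in these bins. Farther out a smaller difference was present, 54.0 against 64.0 at 10 to 15 kb and 55.8 against 62.4 at 15 to 20 kb. Both profiles have a crowded rim, a sparse belt and a step near 4 to 6 kb, and the belt was deeper and the step sharper around wide peaks.

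Pairs of a wide and a narrower peak with a gap of 1 to 4 kb numbered 329, against 1045 at 5 to 8 kb, an equal length of flank. The ratio was 0.315 (exact binomial interval 0.277 to 0.357). Around narrower peaks of the first decile the same ratio, over 588 and 1306 distinct pairs, was 0.450 (0.408 to 0.497), and around wide peaks of that decile it was 0.291 (0.241 to 0.349), so that the intervals do not overlap. It changed little with the width of the wide peak, 0.298 at 1000 to 1249 bp, 0.318 at 1250 to 1499 bp, 0.393 (0.294 to 0.521) at 1500 to 1999 bp and 0.247 (0.146 to 0.402) at 2 kb or more. All 20 chromosomes had fewer such pairs at the shorter gap, with chromosome X at 6 against 7. The intervals treat pairs as independent, although 1 peak can enter several pairs.

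The sparse belt depended on which peaks were counted in it. With narrower peaks listed in the last 50% of lines, wide peaks formed 29 pairs at 1 to 4 kb and 415 at 5 to 8 kb, a ratio of 0.070 (0.046 to 0.102). Only 3 of these pairs had a gap of 2 to 3 kb. Narrower peaks from the first 50% of lines gave 300 and 630, a ratio of 0.476 (0.414 to 0.547). Pairs of wide peaks numbered 39 and 49, a ratio of 0.796 with a broad interval (0.509 to 1.24). The order was the same around narrower peaks of the first decile, where late-listed narrower peaks gave 0.192 (0.151 to 0.242), those from the first 50% of lines 0.585 (0.523 to 0.654) and wide peaks 0.899 (0.686 to 1.18). Around wide peaks of that decile late-listed narrower peaks gave 0.044 (0.020 to 0.085), 9 pairs against 204. The scarcity of late-listed peaks was therefore shared with narrower peaks of like line number, and deeper around wide ones. What kept late-listed peaks out of this belt was not tested, and the read signal that would bear on it was not analysed here.

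**Figure D5:**
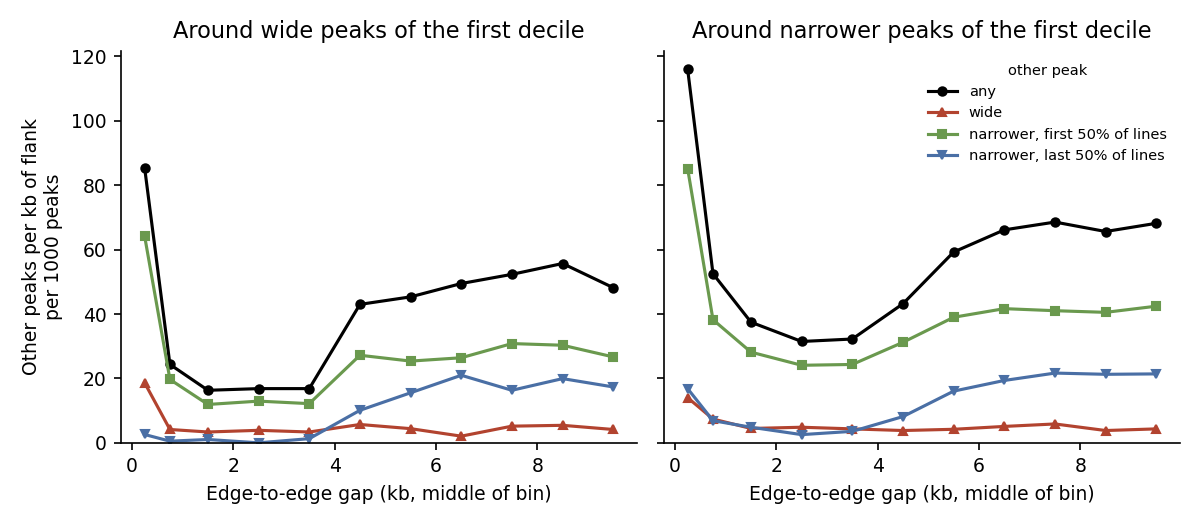
Other peaks per kb of flank per 1000 peaks, by edge-to-edge gap in kb, around wide (left) and narrower (right) peaks of the first decile of lines, for all other peaks and for 3 classes of them. At 1 to 4 kb the left curve for all other peaks lies between 16.3 and 16.8 and the right one between 31.5 and 37.5, and late-listed narrower peaks approach 0 on the left.

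The narrower peaks at the rim of wide peaks were mid-sized and fairly early in the list. Adjacent pairs of a wide and a narrower peak less than 0.5 kb apart numbered 305. The narrower partner had a median width of 455 bp and a median line of 14548, and the wide peak came first in the list in 72.5% (67.1 to 77.4%) of these pairs. For pairs 5 to 10 kb apart the partner's median width was 300 bp, its median line 25998, and the wide peak came first in 88.0% (86.1 to 89.7%). Partners in between were not intermediate: at 0.5 to 1 kb (90 pairs) their median width was 496 bp and their median line 8881, and at 1 to 5 kb (512 pairs) 424 bp and 12453. Partners up to 5 kb away were thus wider and earlier-listed, by their medians, than those at 5 to 10 kb.

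Few peaks of either class had a wide one nearby, and wide peaks were only 6.41% of the list. Another wide peak was within 10 kb of 357 wide peaks (9.52%, interval 8.60 to 10.5%). Narrower peaks weighted to the same line deciles had a wide peak within 10 kb in 8.56%. Within 0.5 kb the shares were 2.03% (1.60 to 2.53%) and 1.35%. At both distances the share was thus slightly higher for wide peaks than for narrower peaks of like line number. Within 50 kb it was lower, 31.4 against 34.5%. There were 38 adjacent pairs of wide peaks less than 0.5 kb apart. The closest pair was chr9:20530706-20531716 and chr9:20531776-20532814, with a gap of 59 bp, on lines 25600 and 15674. Next was a pair at chr1:107886289-107887488 and chr1:107887555-107888700, with a gap of 66 bp, on lines 3403 and 7802. Both members of each pair were of 1011 to 1200 bp, so that joining them would have given regions of more than 2 kb.

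Wide peaks were rare in long runs. Runs of at least 5 peaks with gaps of at most 5 kb numbered 98, and 12 of them contained a wide peak. They held 15 wide peaks among 556, or 2.70% (1.52 to 4.41%), against 6.41% in the list. Of all wide peaks 0.400% (0.224 to 0.659%) were in such a run, of narrower peaks 0.988% (0.907 to 1.07%), and of narrower peaks weighted to the same line deciles 1.93%. Conversely, 73.1% of wide peaks (71.7 to 74.5%) had no other peak within 5 kb, against 65.2% of narrower peaks and 59.9% after weighting.

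When runs of any length were counted with the same gap, none held more than 3 wide peaks, and 5 held 3. Each of these 5 consisted of 4 peaks in all, and so falls short of the 5 peaks asked for above. They lay at chr6:52183506-52196920 and chr6:134870166-134879247, chr8:86716461-86728282, chr11:77316946-77329468 and chr12:74132327-74148048. Peaks covered 33.0 to 39.1% of these stretches of 9.08 to 15.7 kb.

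Single wide peaks ranged from crowded to isolated. The most crowded, at chr8:97219161-97220263 (1103 bp), had 6 other peaks within 10 kb and stood on line 17919. Among those with 5 was a peak of 2080 bp at chr8:87500860-87502939, with a neighbour 89 bp away. The others with 5 on the earliest lines were all on chromosome 15, at chr15:77713106-77714326, chr15:102796812-102798070 and chr15:102998995-103000078. The most isolated lay at chr1:50983870-50985039, with no peak for 361135 bp, followed by chr2:144992745-144994127 with 349013 bp. Next were chr5:48374018-48375235 (320054 bp), chr3:75360198-75361657 (303155 bp) and chr6:61130026-61131194 (301317 bp). These 5 stood on lines 12278 to 20579, later than the median wide peak. Farther than 50 kb from any other peak were 124 wide peaks (3.31%) and 7.26% of narrower ones. At like line number this order was reversed. A neighbour lay within 50 kb of 96.7% of wide peaks and of 97.7% of narrower peaks weighted to their line deciles.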

How the data were processed

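The deposited file of the anti-Six4 shNS library lists chromosome, start and end of each peak in 3 columns, with no header, score, p-value or summit. Widths and gaps in bp were computed from these coordinates, which the authors deposited without a stated order. Per the submitters' processing notes, the tools were Bowtie, Picard, bedtools and MACS2 version 2.0 and the build was mm9. Their roles and thresholds and the control are not stated in these sources. The other 6 libraries were not analysed here. Read depth is unknown.

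Peaks were ranked by line and split into deciles. Weighted values take the share of narrower peaks in each decile and average it over the deciles of the wide peaks. Gaps were measured edge to edge. The densest windows were the first 10% by peak count. Shares have exact Clopper-Pearson intervals. No test was run, since there is 1 library and width chose the members. The code for neighbour, pair and run counts was checked on a simulated list with planted neighbours, which gives no null for the shares. Named regions were the widest, earliest, latest, most crowded and most isolated wide peaks, those at the threshold, and the windows and runs with the most wide peaks. The closest pairs of wide peaks and the dense windows without one were picked with their values in view. The members and lists were chosen with earlier results of these data known. Promoter and motif shares were planned only with an mm9 sequence and annotation, which were not used here, so no sequence is printed. The work was done in Python 3.11.15 with scipy 1.17.1, pandas 2.3.3, matplotlib 3.10.9 and numpy 2.4.6.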

Additional observations from a re-analysis of the deposited data

How the results depend on the processing

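No paired analysis was possible because the series has 1 library of each kind and the values come from 1 of them. There were 94 recomputed values for 13 results, and most of these results are counts or shares that have no direction to reverse. The X to autosome ratio and the spacing ratio stayed below 1, although some intervals of the X ratio reached past 1. The order of width and the difference at like line number stayed negative. Of the 94 values, 59 stayed within their limits. The limit was the 95% interval for shares of peaks, the median line, the X and spacing ratios and the difference at like line number. For other values, the share of covered length included, it was 1.5 times. Alternatives on the difference at like line number, the order of width and the spacing ratio were chosen after seeing the data.

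With a threshold of 800 bp there were 6227 wide peaks, their median line was 6369, 46.8% were in the first 10% of lines, 56.2% had a peak and 14.4% a wide peak within 10 kb. With 1500 bp these values were 951, 4222, 61.9%, 53.9% and 1.26%, the covered share was 7.58%, the variance over mean 1.56, the difference at like line number -9.97 points and the spacing ratio 0.394. After merging peaks under 500 bp apart the median line was 6354, 45.0% were in the first 10% of lines and 49.9% had a peak within 10 kb. Without peaks of the shortest width, 49.6% were in the first 10% of lines. With lines restricted to the first 50%, 28.6% were in the leading 10%, the X to autosome ratio of wide shares was 0.946 (0.657 in the whole list), 42.0% had a peak within 10 kb, 40.7% lay in the densest windows and the spacing ratio was 0.477. Windows of 0.5 and 2 Mb placed 39.6 and 34.4% in the densest 10%, and ranking by narrower peaks 32.9%. By midpoint distance 50.3% had a peak and 8.37% a wide peak within 10 kb, and the difference was -14.7 points. At 5 kb the first 2 values were 26.9 and 5.63%, and at 1 kb 12.7 and 2.51%, with a difference of -4.97 points. With gaps of at most 2 kb no wide peak was in a run of 5 (0 of 3751, exact upper limit 0.098%), and with 10 kb 11.0% were.

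The read depth is unknown, so the widths cannot be set against signal.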

Other observations

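A few wide peaks stood late in the list. The last 50% of lines held 60 of them, 1.60% of all wide peaks, with a median width of 1122 bp and a maximum of 2100 bp. Chromosome X held 7 of the 60 (11.7%, exact binomial 95% interval 4.82 to 22.6%), ahead of chromosome 7 with 6 and chromosomes 2 and 17 with 5 each. By comparison, X held 1.44% of earlier wide peaks (1.08 to 1.87%) and 3.29% of late narrower peaks (3.09 to 3.51%). Another peak lay within 1 kb of 12 of the 60, against 12.5% of earlier wide peaks and 11.5% of late narrower peaks. Within 10 kb there was one for 29 of the 60 (48.3%), against 54.6% and 51.8%. The share of late wide peaks was thus the highest of these at 1 kb and the lowest at 10 kb. No interval was computed for these neighbour shares, and whether they differ was not tested. The latest were peaks at chr1:194660405-194661443 (line 53916), chr4:129876205-129877238 (line 50262) and chrX:140752349-140753594 (line 49650). Before these came chr17:34114832-34115938 (line 46016), which is in one of the windows richest in wide peaks, and chrX:163819780-163820967 (line 45672).

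Some narrower peaks would become part of wide regions if close peaks were joined. Merging peaks under 500 bp apart gave 55533 regions. Of these, 4741 were of at least 1 kb, of which 3374 were single listed peaks and 1029 contained no listed wide peak. Among the listed wide peaks 377 (10.1%) were joined to another peak.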
